A study of Homo sapiens with 48 samples.

Results

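The 43 genes described here are interferon-stimulated genes and genes of class I antigen presentation. They were taken by symbol, by a list drawn up with earlier results of these data known, from the 33892 rows of a matrix of read counts per gene. The matrix covers 8 established human cancer cell lines grown in dishes, each treated for 24 h with carfilzomib or with its solvent DMSO in 3 biological replicates, 48 libraries in all. Carfilzomib irreversibly blocks the proteasome, which breaks down proteins marked with ubiquitin, and it was given at the IC50 of proteasome activity. The lines, by the tumour they came from, were RKO and DLD-1 (colon), H-23 and H-1299 (lung), PANC-1 and CAPAN-2 (pancreas), and H-929 and RPMI (multiple myeloma, a cancer of plasma cells). The study is about the response of cancer cells to proteasome inhibition, and the question here is which interferon-stimulated and antigen presentation genes moved with the drug in each line. A culture of 1 line is taken here to hold no cells of other types, and each tumour type is represented by 2 lines. From RNA of a whole culture, fewer cells carrying a transcript and less of it per cell cannot be told apart.

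Interferons are secreted proteins that signal through cell surface receptors and the kinases JAK1 and TYK2. Type I interferon leads to a complex of STAT proteins with IRF9 that binds the interferon-stimulated response element in the promoters of its target genes, while IRF1 and IRF7 act on related elements. The targets include sensors of foreign RNA, enzymes and membrane proteins that restrict viruses, the ubiquitin-like protein ISG15 with its conjugation machinery, and the parts of the pathway that cuts proteins into peptides and displays them to T cells. The proteasome itself makes most of those peptides, and its subunit PSMB10 is a member of the interferon-inducible form, the immunoproteasome.

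Total counts ran from 9.12 to 64.4 M (mega) per library, and the totals of H-929 were lower with carfilzomib (9.12 to 9.93 M) than with DMSO (14.6 to 18.9 M). In the DMSO libraries all 8 plasma cell markers checked were at 10 counts or more per M counts of the library (CPM) in both myeloma lines, and the 5 epithelial markers were in DLD-1, PANC-1 and CAPAN-2. Among the epithelial markers, CDH1 and KRT19 were under 1 CPM in RKO, and EPCAM, CDH1 and KRT19 were under 1 CPM in H-1299. The lung surfactant gene SFTPC was under 1 CPM in both lung lines and SFTPB under 1 CPM in H-1299, and 3 of 4 colon markers were under 1 CPM in RKO. In the myeloma lines, the markers of other cell types at 10 CPM or more were KRT18, CD3E and PECAM1 in H-929 and KRT18 and EPCAM in RPMI. Their source was not tested. DMSO replicate 3 of H-929 stood apart from the other DMSO libraries of that line in the summed level of the genes described here, which is given below. For 4 of the 43 genes (IRF7, IRF9, IFI27 and B2M) the matrix holds a second row with the same symbol and a suffix. The identifiers of these 4 genes are not in the primary assembly of the GENCODE 29 annotation. Their rows may therefore not hold the reads of the main locus. Single rows of these 4 genes are uncertain, and so are the sums of rows, which are given for IRF7 and B2M.

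The response element is the sequence that interferon targets are known for, so it was looked for in the promoters and is shown for a few of them. The core searched was GAAA, any 2 bases (NN) and GAAA again, on either strand, where the reverse complement reads TTTC, NN and TTTC, in RefSeq promoter windows of GRCh38.p14 that run from 250 bases before to 50 bases after a transcription start. Of the 43 genes, 34 had a window, and 23 of those (67.65%) held the core in at least 1 window. Counted by window, 27 of 47 held it (57.45%), beside 1255 of all 35116 windows in the table (3.574%). The sequences below are stretches upstream of the start of 7 genes whose values are described later, read 5′ to 3′ on the strand of the gene, with the bases of each core match in capitals. They show a direct repeat of adjoining or overlapping cores in ISG15, BST2 and B2M, a spaced pair in IFIT1, and a single core in IFI44, PSMB10 and ERAP2.
IFIT1: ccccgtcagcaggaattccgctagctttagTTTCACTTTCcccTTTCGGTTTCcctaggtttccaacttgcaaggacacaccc
ISG15: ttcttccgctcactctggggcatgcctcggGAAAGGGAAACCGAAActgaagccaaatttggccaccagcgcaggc
BST2: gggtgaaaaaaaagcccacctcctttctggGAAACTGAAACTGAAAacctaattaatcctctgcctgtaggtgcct
IFI44: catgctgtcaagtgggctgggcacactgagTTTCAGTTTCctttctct
B2M: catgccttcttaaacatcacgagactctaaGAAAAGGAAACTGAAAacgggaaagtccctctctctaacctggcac
PSMB10: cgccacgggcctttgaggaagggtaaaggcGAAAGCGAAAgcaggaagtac
ERAP2: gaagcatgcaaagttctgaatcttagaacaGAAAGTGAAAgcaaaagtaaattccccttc
The IFIT1 stretch lies at chr10:89392477-89392559 on the plus strand, and that of ISG15 at chr1:1013354-1013429 on the plus strand. The BST2 stretch lies at chr19:17405715-17405790 on the minus strand, and that of IFI44 at chr1:78649741-78649788 on the plus strand. The B2M stretch lies at chr15:44711343-44711418 on the plus strand, that of PSMB10 at chr16:67936851-67936901 on the minus strand, and that of ERAP2 at chr5:96876440-96876499 on the plus strand. All 7 stretches end before the transcription start of their window. The core was not found in the windows of STAT2, IRF1, IRF9, OAS1, CMPK2, SAMD9L, HERC6, TRIM25, IFI35, XAF1 and SP110. A match to these letters is a description of the sequence and was not tested for binding.

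Before any drug, the lines carried the genes at very different levels. Levels across lines are in CPM, scaled by the trimmed mean of M-values (TMM) over the 24 DMSO libraries, as mean ± SD of 3 libraries. The summed level of the 35 interferon-stimulated genes with 1 row each was highest in CAPAN-2 at 1970.1 ± 67.7 CPM, with H-929 next at 1784 ± 296 CPM. It was 1311 ± 87.1 CPM in RPMI, 1134 ± 15.9 CPM in DLD-1, 1057 ± 57.6 CPM in PANC-1 and 895 ± 30.3 CPM in RKO. The lung lines had the lowest sums, at 628 ± 18.1 CPM in H-1299 and 395 ± 8.45 CPM in H-23. In H-929 the 3 DMSO libraries gave 1892, 2010.0 and 1449 CPM, so that its order beside CAPAN-2 is not settled by these libraries. In edgeR's F test over the 24 DMSO libraries the level differed between the 8 lines for 43 of 43 genes at an adjusted p under 0.05, as it did for 98.8% of the 21116 genes tested.

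Single genes were present in some lines and at or near 0 counts in others. BST2, the membrane protein tetherin that holds budding virus at the cell surface, was at 344 ± 18.7 CPM in RPMI, 285 ± 4.09 CPM in H-929, 212 ± 4.78 CPM in RKO and 123 ± 9.08 CPM in CAPAN-2. The same gene stood at 5.76 CPM in PANC-1 and had at most 4 counts in any library of DLD-1 and H-23. MX1, a dynamin-like antiviral GTPase, was at 273 ± 88.5 CPM in H-929, against 43.7 ± 5.57 CPM in CAPAN-2, 1.08 CPM in H-23 and 0.754 CPM in H-1299. OAS2, which makes the second messenger that switches on RNase L, was at 169 ± 43.5 CPM in H-929 and 17.6 ± 3.88 CPM in RPMI, with at most 12 counts in any library of RKO, H-23 and H-1299. ERAP2, an aminopeptidase that trims peptides in the endoplasmic reticulum, ran from 3.19 ± 0.270 CPM in H-23 to 488 ± 29.8 CPM in CAPAN-2. STAT2 lay in a narrow range, between 61.04 CPM in RKO and 96.3 CPM in H-23. MX2 and CMPK2 had no count in any of the 6 libraries of H-1299, and IFI44L had none in the DMSO libraries of RKO, DLD-1 and H-23.

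Levels of different genes can be compared only per length, here as CPM per kilobase of the union of a gene's exons in GENCODE 29, for the 39 genes with a length. On this scale BST2 was the leading gene in RKO (189.7 CPM per kilobase), CAPAN-2 (109.8), H-929 (255) and RPMI (308). ISG15 was the leading gene in the other four lines, at 55.4 CPM per kilobase in DLD-1, 41.3 in PANC-1, 37.9 in H-1299 and 32.9 in H-23.

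Carfilzomib was then compared with DMSO within each line, on the 6 libraries of that line, by edgeR's quasi-likelihood F test with Benjamini-Hochberg adjustment over all genes tested. A gene is called higher or lower at an adjusted p under 0.05. The largest share of calls was in RPMI, where 32 of the 39 genes tested were higher and 4 lower, beside 31.3% of all genes higher and 32.2% lower. In CAPAN-2, 25 of 40 were higher and 7 lower (25.7% and 26.7% of all genes). The other myeloma line, H-929, had 5 of 41 higher and 14 lower (26.4% and 26.2% of all genes). In PANC-1, 16 of 40 were higher and 10 lower (20.5% and 18.2% of all genes). In DLD-1, 14 of 36 were higher and 2 lower (10.9% and 12.1% of all genes). The lung lines had no excess of higher calls, with 5 of 30 higher and 7 lower in H-23 (17.7% and 16.2% of all genes) and 8 of 32 higher and 10 lower in H-1299 (29.8% and 31.3% of all genes). In RKO 3 of 28 were higher and 0 lower (3.62% and 5.28% of all genes).

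The median log2 fold change over the genes tested was 1.77 in RPMI and 0.59 in CAPAN-2, 0.25 in DLD-1, 0.14 in RKO and 0.12 in PANC-1. It was -0.02 in H-23, -0.16 in H-1299 and -0.30 in H-929, while the median over all genes lay between -0.02 and 0.03 in every line. Calls with a change of at least 2-fold numbered 25 of 39 higher in RPMI (10.8% of all genes) and 9 of 40 higher and 1 lower in CAPAN-2 (4.64% and 5.68%). H-1299 had 4 of 32 higher and 2 lower of that size (5% and 8.72%), and PANC-1 had 1 of 40 higher and 2 lower (1.46% and 0.777%). H-929 had 3 of 41 higher, a smaller share than that of all genes, and 6 lower (16% and 4.29%). DLD-1 (1.01% and 0.271%), H-23 (1.17% and 0.698%) and RKO (0.393% and 0.124%) had none. Across the 8 lines 25 of the 42 genes tested in at least 1 line were called higher in 1 and lower in another, beside 31.8% of all genes. Of the 23 genes tested in all 8 lines, 13 were, beside 47.8% of all genes tested in all 8. A further 12 were called only higher (STAT2, IRF7, IFIT1, IFIT2, IFIT5, RSAD2, ISG20, SAMD9L, PARP9, PARP14, IFI6 and IFI44, beside 24.2% of all genes), 4 only lower (CMPK2, USP18, PSMB10 and ERAP1, beside 23.3%) and 2 in no line (IRF9 and IFI27). CMPK2 and USP18 were not tested in RPMI, where their DMSO libraries held at most 0 and 1 counts. In an edgeR fit of all 48 libraries both responded more in RPMI than in H-929. The log2 differences were 5.15 ± 1.53 for CMPK2 (SE, adjusted p = 0.00617) and 3.28 ± 0.93 for USP18 (adjusted p = 0.00371). The DMSO and carfilzomib libraries of a called gene did not overlap, except for OAS1 in H-23, CMPK2 in CAPAN-2, and TRIM25 and XAF1 in H-929. How often called genes overlap was not counted over all genes. A lack of overlap, here and below, therefore describes the libraries and is not support apart from the call.

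**Figure D1:**
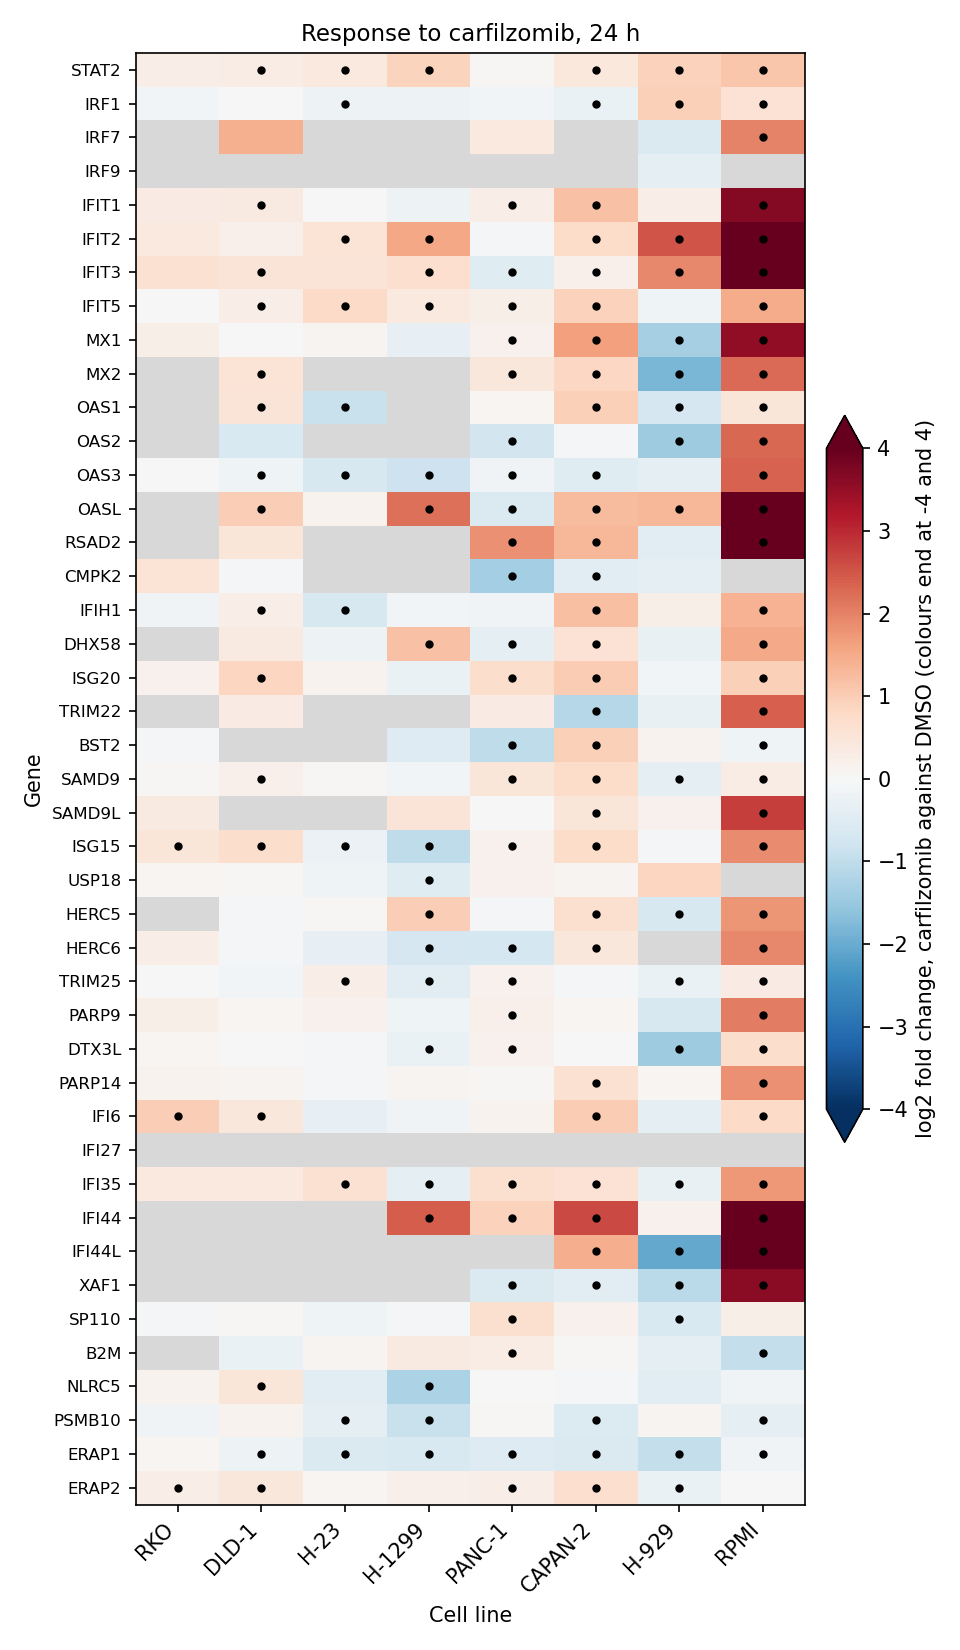
Log2 fold change of carfilzomib against DMSO (colour) for each of the 43 genes (vertical axis) in each of the 8 cell lines (horizontal axis), with called changes marked by a dot and genes under the count filter in grey. The RPMI values are mostly above 0 outside the antigen presentation genes, with a median of 1.77 over all tested, while H-929 has a median of -0.30.

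Levels within a line are from here on in CPM scaled by TMM within that line. The summed level of the 39 genes with 1 row went from 1682, 1533 and 1538 CPM with DMSO to 3609, 3185 and 3311 CPM with carfilzomib in RPMI. In CAPAN-2 it went from 2641, 2483 and 2698 CPM to 3858, 3811 and 3660.3 CPM. In both lines every carfilzomib library lay above every DMSO library. The same held, with smaller differences, in DLD-1 (means of 1453 CPM with DMSO and 1631 CPM with carfilzomib), RKO (1132 and 1208 CPM) and H-23 (518 and 534 CPM). The groups overlapped in H-1299 and PANC-1. In H-929 the sums were 2029, 2143 and 1611 CPM with DMSO and 1567, 1823 and 1806 CPM with carfilzomib, so the groups overlapped, with DMSO replicate 3 the lowest of its group. The share of counts in the 10 most abundant genes also moved with the drug, without overlap, in every line but RKO and PANC-1. It rose from 6.45 to 6.78% up to 11.8 to 13.2% in H-929, from 7.16 to 7.81% up to 11.5 to 11.9% in RPMI and from 6.99 to 7.30% up to 8.65 to 9.09% in H-1299, rose less in DLD-1 and H-23, and fell from 6.08 to 6.58% down to 5.57 to 5.78% in CAPAN-2. Its part in these results was not tested.

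**Figure D2:**
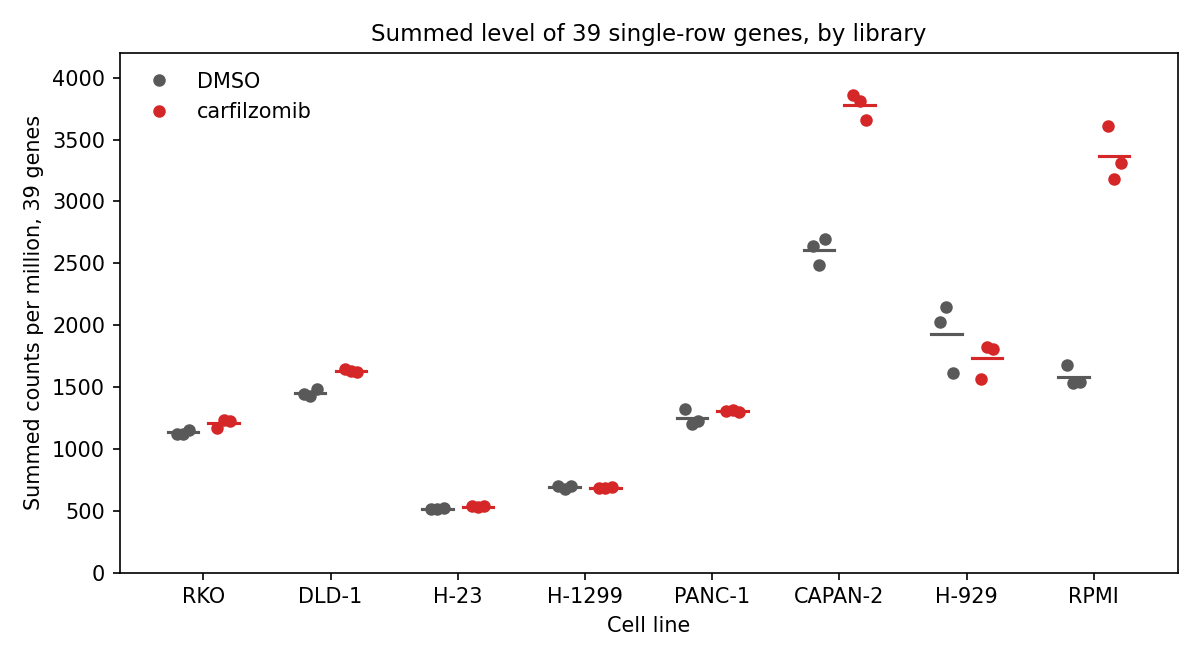
Summed level of the 39 genes with 1 row (vertical axis, CPM scaled within the line) in every library, DMSO and carfilzomib side by side for each of the 8 lines (horizontal axis). Libraries separate by treatment in RPMI (means of 1584 and 3368 CPM), in CAPAN-2 (2607 and 3777 CPM) and, by less, in RKO, DLD-1 and H-23. Those of H-929, H-1299 and PANC-1 overlap.

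Among the transcription factors STAT2 rose in the most lines. After each log2 fold change below, the ± value is its standard error, and each treatment has 3 libraries per line. In RPMI STAT2 was at 83.04, 87.7 and 85.9 CPM with DMSO and 193, 183 and 178 CPM with carfilzomib (log2 fold change 1.11 ± 0.05, adjusted p = 7.85e-10). In H-929 it was at 82.3, 78.2 and 59.99 CPM and then 131, 152 and 134 CPM (log2 fold change 0.92 ± 0.11, adjusted p = 1.04e-05). In H-1299 it was at 63.9, 55.3 and 65.6 CPM and then 111, 116 and 114 CPM (log2 fold change 0.88 ± 0.06, adjusted p = 6.57e-08). In these lines no carfilzomib library reached down to a DMSO library. The rise was smaller in CAPAN-2, from 83.5, 77.9 and 92.5 CPM to 111, 117 and 113 CPM (log2 fold change 0.42 ± 0.07, adjusted p = 7.38e-05). H-23 went from 110.3, 105 and 107 CPM to 141, 144 and 142 CPM (log2 fold change 0.41 ± 0.04, adjusted p = 1.57e-06), and DLD-1 from 86.9, 90.2 and 93.1 CPM to 119, 109 and 106 CPM (log2 fold change 0.31 ± 0.05, adjusted p = 0.00238). The groups did not overlap in these lines either. STAT2 was not called in RKO (0.26 ± 0.08, adjusted p = 0.0836) or in PANC-1 (0.06 ± 0.05, adjusted p = 0.424).

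IRF1, which drives antiviral and antigen presentation genes and is itself induced by interferon gamma, was called higher in the myeloma lines alone. In H-929 IRF1 was at 108, 103 and 99.5 CPM with DMSO and 183, 206 and 213 CPM with carfilzomib (log2 fold change 0.95 ± 0.08, adjusted p = 4.24e-07), with all carfilzomib libraries above all DMSO libraries. In RPMI its log2 fold change was 0.59 ± 0.05. It fell in CAPAN-2 (-0.28 ± 0.06) and H-23 (-0.19 ± 0.06), and was not called in RKO (-0.11), DLD-1 (0.03), H-1299 (-0.21) or PANC-1 (-0.11). The H-23 call was lost without DMSO replicate 3 (adjusted p = 0.0870) and without carfilzomib replicate 3 (adjusted p = 0.0679), and in the fit of all 48 libraries (adjusted p = 0.0951). IRF7, the factor that amplifies interferon production, is uncertain because its counts are split over 2 rows with an identifier outside the GENCODE 29 primary assembly. With both rows summed it was at 1.05, 2.02 and 2.23 CPM with DMSO and 4.80, 6.80 and 6.82 CPM with carfilzomib in RPMI (log2 fold change 1.75 ± 0.26, adjusted p = 4.22e-05), and was called in no other line. The summed IRF7 fold changes elsewhere ran from -0.50 in H-1299 to 0.53 in DLD-1. IRF9, the DNA-binding partner of STAT2, had too few counts to be tested in 7 lines and was not called in H-929 (-0.38 ± 0.69). The identifier of IRF9 is also outside that assembly, so its low counts are not shown to be a low level of the gene.

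The antiviral effectors and RNA sensors made up the largest group, with 19 genes. In RPMI 17 of the 18 tested rose and 1 fell (31.3% and 32.2% of all genes), with a median log2 fold change of 2.32. IFIT2, from a family of proteins that bind viral RNA, was at 1.63, 1.45 and 0.978 CPM with DMSO and 108, 84.3 and 99.3 CPM with carfilzomib in RPMI (log2 fold change 6.23 ± 0.14, adjusted p = 2.20e-12). RSAD2, the enzyme viperin, which makes a chain-terminating nucleotide, had 3, 0 and 3 counts with DMSO and 77, 49 and 79 counts with carfilzomib (log2 fold change 5.40 ± 0.54, adjusted p = 1.17e-06). Both sets of carfilzomib libraries lay far above the DMSO libraries. IFIT1 was at 8.03, 8.08 and 8.80 CPM with DMSO and 126, 93.4 and 101 CPM with carfilzomib (log2 fold change 3.67 ± 0.11, adjusted p = 1.47e-11). IFIT3 (4.15 ± 0.11), OASL (4.22 ± 0.16) and MX1 (3.55 ± 0.24) rose as well. The cytosolic RNA sensor IFIH1 rose by 1.40 ± 0.08 on the log2 scale, to 160.1 ± 10.4 CPM (SD, n = 3). BST2 was the exception, at 329.8, 297 and 296 CPM and then 286, 262 and 269 CPM (log2 fold change -0.17 ± 0.06, adjusted p = 0.0201). Its libraries did not overlap, but the BST2 call was lost without DMSO replicate 1 (adjusted p = 0.0681) and without carfilzomib replicate 2 (adjusted p = 0.0761).

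In H-929, 3 of 19 were higher and 5 lower (26.4% and 26.2% of all genes), with a median of -0.30. The first share is below that of all genes and the second is near it. IFIT2 was at 4.51, 5.15 and 2.93 CPM with DMSO and 23.5, 23.7 and 25.1 CPM with carfilzomib (log2 fold change 2.51 ± 0.21, adjusted p = 2.40e-07). IFIT3 was at 10.4, 12.7 and 8.38 CPM and then 36.7, 42.2 and 40.2 CPM (log2 fold change 1.91 ± 0.15, adjusted p = 2.04e-07). OASL, an OAS-like protein that enhances RNA sensing, was at 8.90, 9.49 and 5.86 CPM and then 23.8, 17.7 and 19.04 CPM (log2 fold change 1.32 ± 0.21, adjusted p = 9.43e-05). For these genes the carfilzomib libraries were all above the DMSO libraries. MX2, a relative of MX1 that acts at the nuclear pore, was at 27.5, 25.98 and 13.1 CPM with DMSO and 4.65, 7.57 and 6.68 CPM with carfilzomib (log2 fold change -1.82 ± 0.27, adjusted p = 5.77e-05). OAS2 was at 169.99, 181 and 109 CPM and then 45.7, 60.97 and 64.7 CPM (log2 fold change -1.43 ± 0.17, adjusted p = 7.05e-06). MX1 was at 281, 303 and 157 CPM and then 66.8, 122 and 108 CPM (log2 fold change -1.33 ± 0.22, adjusted p = 1.65e-04). All carfilzomib libraries were below all DMSO libraries, and DMSO replicate 3 was the lowest DMSO library for each. Without DMSO replicate 3 the log2 fold changes were -2.11 for MX2, -1.64 for OAS2 and -1.58 for MX1, and over all genes described the counts were 5 higher and 16 lower. IFIT1 was not called (0.26 ± 0.32).

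**Figure D3:**
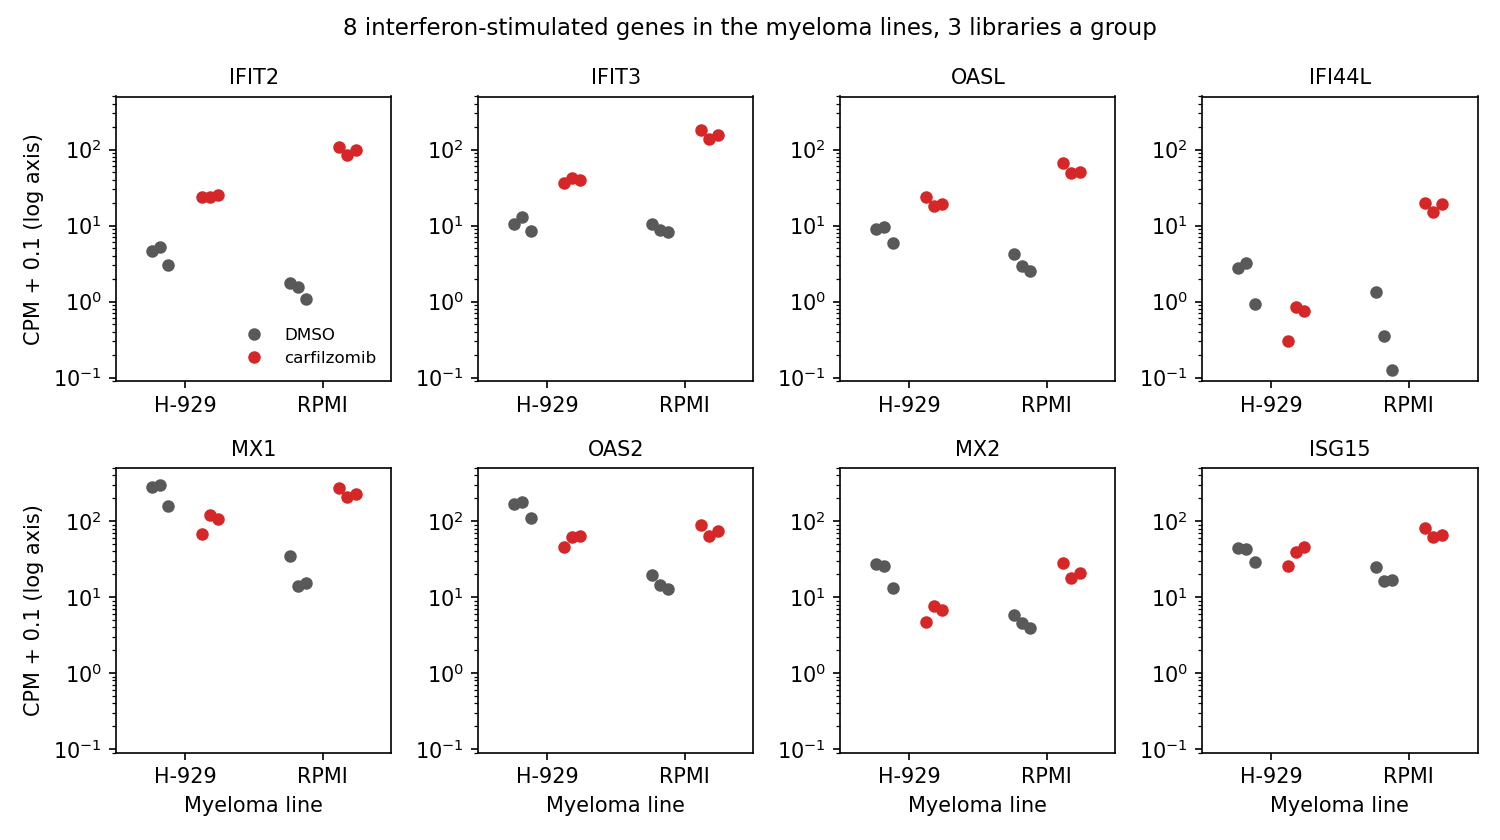
Level of named genes (vertical axis, CPM plus the offset named on the axis, log scale) in every DMSO and carfilzomib library of the myeloma lines H-929 and RPMI (horizontal axis). IFIT2 libraries separate upward in both lines, while those of MX1 separate downward in H-929 and upward in RPMI.

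After RPMI, CAPAN-2 had the largest share of the antiviral group called higher, with 15 of 19 higher and 3 lower (25.7% and 26.7% of all genes). The median was 0.82. MX1 was at 38.4, 38.1 and 47.1 CPM with DMSO and 138, 123 and 123 CPM with carfilzomib (log2 fold change 1.63 ± 0.08, adjusted p = 8.83e-10). RSAD2 was at 1.5004, 1.86 and 3.18 CPM and then 5.93, 5.74 and 4.92 CPM (log2 fold change 1.33 ± 0.24, adjusted p = 2.68e-04). The carfilzomib libraries were above the DMSO libraries for both. IFIT1 (1.17 ± 0.08), IFIH1 (1.204 ± 0.06) and OASL (1.27 ± 0.09) were also more than 2-fold higher. TRIM22, a ubiquitin ligase that restricts viral transcription, was at 5.01, 4.56 and 5.75 CPM with DMSO and 2.28, 2.59 and 2.05 CPM with carfilzomib (log2 fold change -1.15 ± 0.17, adjusted p = 6.39e-05). OAS3, another OAS enzyme, was at 38.02, 45.4 and 47.5 CPM and then 32.7, 31.7 and 30.03 CPM (log2 fold change -0.47 ± 0.08, adjusted p = 1.59e-04). The libraries of TRIM22 and OAS3 did not overlap and lay lower with the drug. TRIM22 overlaps TRIM5 on the other strand and OR56B1 on the same strand, and the use of strand in counting is not given in the sources used here.

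In PANC-1 the group divided evenly, with 7 of 19 higher and 7 lower (20.5% and 18.2% of all genes). RSAD2 was at 0.934, 0.474 and 0.957 CPM with DMSO and 2.71, 2.59 and 3.10 CPM with carfilzomib (log2 fold change 1.82 ± 0.24, adjusted p = 5.99e-05). ISG20, an RNA exonuclease, was at 5.57, 4.64 and 6.01 CPM and then 9.75, 8.30 and 8.41 CPM (log2 fold change 0.70 ± 0.12, adjusted p = 5.04e-04). CMPK2, a mitochondrial nucleotide kinase whose gene overlaps RSAD2 on the other strand, was at 2.1902, 1.69 and 1.97 CPM and then 0.760, 0.998 and 0.497 CPM (log2 fold change -1.37 ± 0.25, adjusted p = 8.42e-04). RSAD2 and ISG20 were higher and CMPK2 lower in every carfilzomib library than in any DMSO library. BST2 was at 6.499, 5.15 and 6.398 CPM with DMSO and 2.84, 3.25 and 2.86 CPM with carfilzomib (log2 fold change -1.01 ± 0.14, adjusted p = 8.31e-05). OAS2 was at 5.03, 4.64 and 4.37 CPM and then 2.94, 3.17 and 2.33 CPM (log2 fold change -0.73 ± 0.15, adjusted p = 0.00172). Neither gene's groups overlapped. IFIT1, whose DMSO level was the highest of the 8 lines in PANC-1 (66.4 ± 7.54 CPM on the scale across lines), changed by 0.26 ± 0.06, a call that was lost in a fit of all 48 libraries (adjusted p = 0.111).

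In H-1299, 5 of 13 tested were higher and 1 lower (29.8% and 31.3% of all genes). IFIT2 was at 4.36, 3.86 and 4.80 CPM with DMSO and 11.8, 12.7 and 13.3 CPM with carfilzomib (log2 fold change 1.54 ± 0.12, adjusted p = 1.61e-07). OASL rested on few counts, 10, 0 and 9 with DMSO and 16, 26 and 7 with carfilzomib, or 0.148, 0 and 0.211 CPM and 0.643, 0.762 and 0.304 CPM (log2 fold change 2.193 ± 0.68, adjusted p = 0.0130). DHX58, a regulator of RNA sensing, was at 0.178, 0.381 and 0.234 CPM and then 0.683, 0.645 and 0.391 CPM (log2 fold change 1.16 ± 0.45, adjusted p = 0.0407). The groups did not overlap, though OASL was no longer called without carfilzomib replicate 2 (adjusted p = 0.0756). The DHX58 call was lost without DMSO replicate 1 (adjusted p = 0.148) or 3 (adjusted p = 0.105) and without carfilzomib replicate 1 (adjusted p = 0.129) or 2 (adjusted p = 0.131). It was also lost with library totals, without the count filter, with the replicate block and in the DESeq2 Wald test (there adjusted p = 0.107). OAS3 fell from 20.7, 22.7 and 20.9 CPM to 11.2, 12.04 and 12.6 CPM (log2 fold change -0.84 ± 0.08, adjusted p = 1.89e-06), with every carfilzomib library below every DMSO library. IFIT1 was not called (-0.21 ± 0.14).

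In H-23, 2 of 12 tested were higher and 3 lower (17.7% and 16.2% of all genes). IFIT2 was at 3.75, 4.08 and 4.99 CPM with DMSO and 6.93, 5.84 and 6.17 CPM with carfilzomib (log2 fold change 0.55 ± 0.14, adjusted p = 0.00875). OAS3 was at 29.7, 32.95 and 29.6 CPM and then 21.6, 19.3 and 18.6 CPM (log2 fold change -0.64 ± 0.07, adjusted p = 8.60e-06). IFIH1 was at 6.84, 5.75 and 7.20 CPM and then 4.05, 4.55 and 4.15 CPM (log2 fold change -0.64 ± 0.13, adjusted p = 0.00203). These separate without overlap, IFIT2 upward and the other two downward. OAS1, the remaining OAS enzyme, was at 1.21, 1.24 and 0.814 CPM and then 0.860, 0.458 and 0.485 CPM (log2 fold change -0.90 ± 0.33, adjusted p = 0.0495), and here the groups overlapped. Its call was lost without DMSO replicate 1 (adjusted p = 0.149) or 2 (adjusted p = 0.133), and without carfilzomib replicate 2 (adjusted p = 0.155) or 3 (adjusted p = 0.139), and in the DESeq2 Wald test (adjusted p = 0.0901). IFIT1 was not called (0.03 ± 0.10).

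In the colon line DLD-1, 9 of 17 tested were higher and 1 lower (10.9% and 12.1% of all genes). OASL was at 1.45, 1.36 and 1.10 CPM with DMSO and 2.9999, 2.06 and 2.69 CPM with carfilzomib (log2 fold change 0.98 ± 0.20, adjusted p = 0.00636). ISG20 was at 4.49, 5.26 and 4.52 CPM and then 8.94, 7.88 and 9.16 CPM (log2 fold change 0.86 ± 0.12, adjusted p = 6.41e-04). MX2 was at 4.59, 5.13 and 4.59 CPM and then 6.93, 7.04 and 6.88 CPM (log2 fold change 0.54 ± 0.11, adjusted p = 0.00641). For each of them the carfilzomib libraries were above the DMSO libraries. OAS3 was at 139, 132 and 138 CPM and then 119, 125 and 120.3 CPM (log2 fold change -0.16 ± 0.04, adjusted p = 0.0223), a separation that was no longer called without DMSO replicate 1 (adjusted p = 0.0616), carfilzomib replicate 1 (adjusted p = 0.0896) or carfilzomib replicate 3 (adjusted p = 0.0808). It was also not called with library totals (adjusted p = 0.0665), with the replicate block (adjusted p = 0.0587) or in the fit of all 48 libraries (adjusted p = 0.505). IFIT1 rose by 0.36 ± 0.10 in DLD-1, a call kept without DMSO replicate 3 and lost without any other library (adjusted p up to 0.112). In RKO 0 of 12 effectors were called (3.62% of all genes higher and 5.28% lower), and IFIT1 changed by 0.32 ± 0.24.

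IFIT5 rose in as many lines as STAT2. It was at 16.2, 15.3 and 16.1 CPM with DMSO and 48.5, 40.9 and 44.6 CPM with carfilzomib in RPMI (log2 fold change 1.49 ± 0.08, adjusted p = 3.18e-09). In CAPAN-2 it was at 30.9, 29.2 and 29.6 CPM and then 58.8, 57.6 and 55.3 CPM (log2 fold change 0.94 ± 0.06, adjusted p = 7.36e-09). In H-23 it was at 10.1, 10.7 and 10.9 CPM and then 17.8, 17.4 and 18.2 CPM (log2 fold change 0.75 ± 0.08, adjusted p = 5.27e-06). Its neighbours IFIT1, IFIT2 and IFIT3 in the same cluster overlap LIPA on the other strand, while IFIT5 overlaps no other annotated gene. In H-1299 it was at 21.01, 21.2 and 20.6 CPM and then 25.5, 26.5 and 29.5 CPM (log2 fold change 0.38 ± 0.07, adjusted p = 7.09e-04). In DLD-1 it was at 34.4, 35.8 and 36.3 CPM and then 45.3, 40.8 and 42.9 CPM (log2 fold change 0.28 ± 0.06, adjusted p = 0.00548). In PANC-1 it was at 31.7, 30.5 and 30.4 CPM and then 36.002, 36.9 and 36.96 CPM (log2 fold change 0.25 ± 0.05, adjusted p = 8.36e-04). In all 6 lines the carfilzomib libraries were above the DMSO libraries, though the PANC-1 call was lost in the fit of all 48 libraries (adjusted p = 0.0562). IFIT5 was not called in H-929 (-0.19 ± 0.39) or RKO (0.02 ± 0.10).

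**Figure D4:**
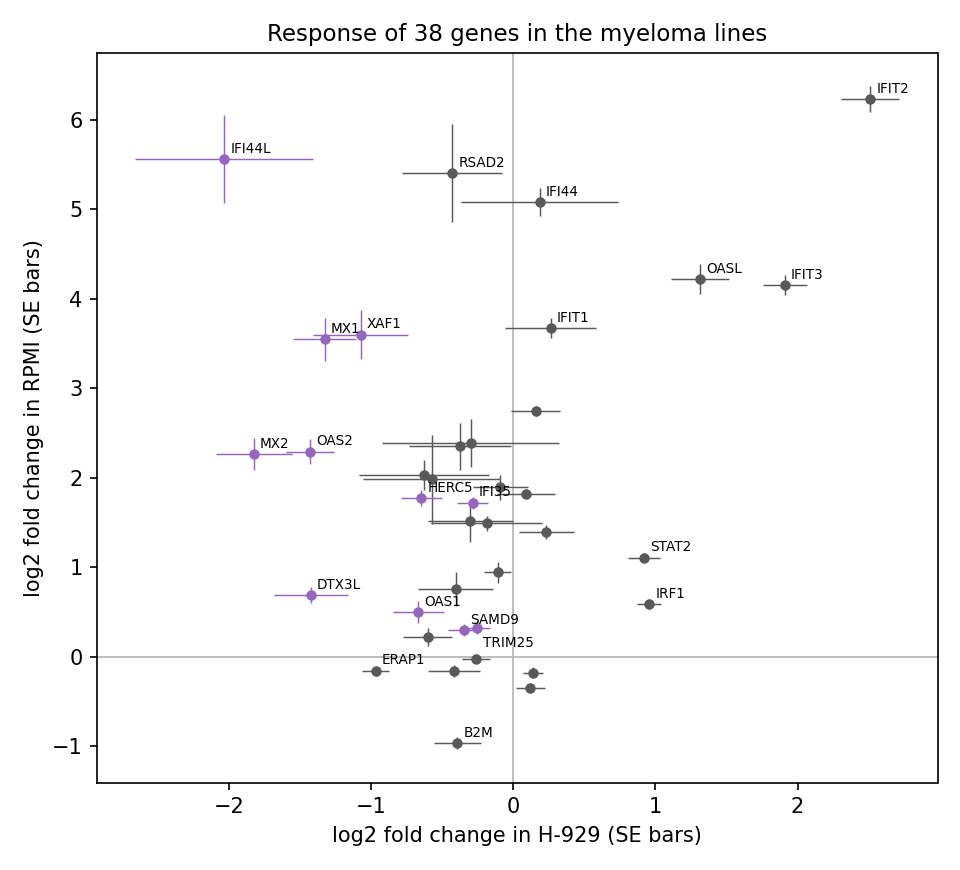
Log2 fold change in H-929 (horizontal axis) against that in RPMI (vertical axis) for the 38 genes tested in both myeloma lines, each point a gene. To the left of 0 and above it lie 11 genes called lower in H-929 and higher in RPMI, and 5 genes were called higher in both. The shares of all genes with these patterns were not counted.

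ISG15 is a ubiquitin-like protein that is attached to other proteins by an enzyme chain that includes the ligases HERC5 and TRIM25, and USP18 removes it and dampens receptor signalling. ISG15 was at 24.6, 16.05 and 16.6 CPM with DMSO and 81.4, 61.4 and 65.9 CPM with carfilzomib in RPMI (log2 fold change 1.89 ± 0.14, adjusted p = 6.19e-08). In H-1299 it went the other way, from 34.1, 32.2 and 34.4 CPM to 14.4, 19.8 and 15.7 CPM (log2 fold change -1.01 ± 0.10, adjusted p = 2.26e-06). In both lines the groups were apart. In DLD-1 it was at 61.2, 56.7 and 46.2 CPM and then 85.9, 83.8 and 95.5 CPM (log2 fold change 0.69 ± 0.09, adjusted p = 4.73e-04), and in RKO at 24.9, 19.5 and 26.04 CPM and then 31.6, 35.7 and 31.1 CPM (log2 fold change 0.48 ± 0.11, adjusted p = 0.0214). The carfilzomib libraries were higher in both colon lines. The RKO call was lost in the fit of all 48 libraries (adjusted p = 0.0642) and without DMSO replicate 2 (adjusted p = 0.0571), carfilzomib replicate 2 (adjusted p = 0.0999) or carfilzomib replicate 3 (adjusted p = 0.0581). ISG15 also rose in CAPAN-2 (0.74 ± 0.07) and PANC-1 (0.18 ± 0.06), fell in H-23 (-0.24 ± 0.07) and was not called in H-929 (-0.09 ± 0.19). The PANC-1 call was lost without DMSO replicate 2 or 3 or carfilzomib replicate 1 (adjusted p up to 0.129), and that in H-23 without DMSO replicate 3 or carfilzomib replicate 2 (adjusted p up to 0.0747). Neither was called in the fit of all 48 libraries (adjusted p = 0.489 and 0.225).

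The ISG15 ligases followed the line as well. HERC5 rose in RPMI (1.77 ± 0.09), H-1299 (0.97 ± 0.06) and CAPAN-2 (0.64 ± 0.09) and fell in H-929 (-0.65 ± 0.14). HERC6, a relative of HERC5, was at 1.90, 1.42 and 1.55 CPM with DMSO and 1.12, 0.998 and 0.900 CPM with carfilzomib in PANC-1 (log2 fold change -0.69 ± 0.21, adjusted p = 0.01996), with no overlap. That call was lost without DMSO replicate 1 (adjusted p = 0.0819) and without carfilzomib replicate 2 (adjusted p = 0.0513) or 3 (adjusted p = 0.0599), and in the DESeq2 Wald test (adjusted p = 0.0782). In H-1299 4 of the 5 genes of this group were lower (31.3% of all genes). HERC6 was at -0.67 ± 0.10, USP18 at -0.47 ± 0.15 and TRIM25 at -0.42 ± 0.04. The USP18 call was lost without carfilzomib replicate 1 (adjusted p = 0.0580). In RPMI 4 of 4 tested were higher (31.3% of all genes), with HERC6 at 1.94 ± 0.20 and TRIM25 at 0.32 ± 0.07. TRIM25 spans a locus that overlaps DGKE on the other strand and C17orf67 on the same strand.

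PARP9, DTX3L and PARP14 form or accompany a complex that modifies proteins with ADP-ribose and ubiquitin and supports interferon signalling. In RPMI all 3 were higher (31.3% of all genes). PARP9 rose by 2.04 ± 0.17, PARP14 by 1.82 ± 0.05 and DTX3L by 0.69 ± 0.09 on the log2 scale. In H-929 DTX3L was at 13.3, 16.9 and 9.80 CPM with DMSO and 3.74, 5.62 and 5.58 CPM with carfilzomib (log2 fold change -1.42 ± 0.26, adjusted p = 3.43e-04), with every carfilzomib library below every DMSO library. Without DMSO replicate 3 its log2 fold change was -1.62. The other two were not called in H-929 (PARP9 -0.63 ± 0.46, PARP14 0.09 ± 0.20). PARP14 was higher in CAPAN-2 (0.59 ± 0.06), but was not called in the colon lines, the lung lines or PANC-1. PARP9 and DTX3L lie head to head on opposite strands, so that their counts may be mixed where strand was not used.

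Of the other interferon-induced genes, IFI44, a cytoplasmic protein of uncertain function, was higher in 4 lines. In RPMI it was at 1.63, 1.204 and 0.842 CPM with DMSO and 42.02, 36.3 and 38.6 CPM with carfilzomib (log2 fold change 5.08 ± 0.16, adjusted p = 2.06e-11). In CAPAN-2 it was at 16.4, 12.99 and 16.2 CPM and then 94.7, 96.3 and 95.3 CPM (log2 fold change 2.65 ± 0.08, adjusted p = 1.11e-11). In H-1299 it was at 0.770, 0.559 and 0.352 CPM and then 3.06, 2.23 and 4.09 CPM (log2 fold change 2.44 ± 0.33, adjusted p = 2.75e-05). In PANC-1, as in the lines before it, all carfilzomib libraries were higher, with 1.76, 1.46 and 1.49 CPM and then 2.51, 3.19 and 3.17 CPM (log2 fold change 0.92 ± 0.18, adjusted p = 0.00114). The related gene IFI44L had 21, 7 and 1 counts with DMSO and 357, 323 and 428 with carfilzomib in RPMI (log2 fold change 5.56 ± 0.49, adjusted p = 3.27e-07). In CAPAN-2 it had 14, 5 and 34 counts and then 54, 42 and 24 (log2 fold change 1.46 ± 0.42, adjusted p = 0.00889), or 0.356, 0.157 and 0.727 CPM and then 1.35, 1.24 and 0.945 CPM. It rose in both lines without overlap in CPM. In the fit of all 48 libraries IFI44 in PANC-1 (adjusted p = 0.0639) and IFI44L in CAPAN-2 (adjusted p = 0.0772) were not called. In H-929 IFI44L had 47, 57 and 12 counts and then 2, 7 and 6 (log2 fold change -2.03 ± 0.62, adjusted p = 0.0133). The H-929 libraries did not overlap in CPM, and the call was lost without carfilzomib replicate 1 (adjusted p = 0.0519).

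IFI6, a mitochondrial and endoplasmic reticulum protein that blocks cell death and viral replication sites, was at 4.49, 5.08 and 4.998 CPM with DMSO and 8.91, 9.68 and 10.3 CPM with carfilzomib in RKO (log2 fold change 0.99 ± 0.18, adjusted p = 0.00436). It was the largest change in RKO, with no overlap. IFI35 was at 15.9, 14.6 and 16.2 CPM and then 22.02, 24.6 and 23.9 CPM in H-23 (log2 fold change 0.59 ± 0.07, adjusted p = 2.02e-05), and SP110, a nuclear body protein, was at 7.97, 7.56 and 8.70 CPM and then 13.98, 12.03 and 11.9 CPM in PANC-1 (log2 fold change 0.65 ± 0.10, adjusted p = 1.78e-04). Both separated upward. XAF1, a promoter of cell death, rose in RPMI (3.60 ± 0.27) and fell in H-929 (-1.07 ± 0.33), PANC-1 (-0.56 ± 0.15) and CAPAN-2 (-0.41 ± 0.14). The H-929 fall was lost without DMSO replicate 1 (adjusted p = 0.0685) or carfilzomib replicate 1 (adjusted p = 0.0553). The fall in PANC-1 was lost in the fit of all 48 libraries (adjusted p = 0.317). That in CAPAN-2 was lost in the same fit (adjusted p = 0.399) and without DMSO replicate 3 or any carfilzomib library (adjusted p up to 0.172). The rows of IFI27, which are uncertain, had too few counts to be tested in any line.

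The antigen presentation genes had 0 of 5 higher in RPMI and 1 of 5 in CAPAN-2 (31.3% and 25.7% of all genes). Most antiviral genes were higher in these lines. Both groups had a median below 0 in H-929 (-0.39 for antigen presentation) and above 0 in DLD-1 (0.13 and, for the antiviral genes, 0.31). The 5 genes include the listed row of B2M, which is uncertain. The H-929 median of antigen presentation is the value of that row, which was not called (adjusted p = 0.0595). The difference between the groups was not tested. ERAP1, the aminopeptidase that trims peptides to the length held by class I molecules, fell in more lines than any other member. In H-929 it was at 122, 140.5 and 113 CPM with DMSO and 62.5, 65.2 and 64.3 CPM with carfilzomib (log2 fold change -0.97 ± 0.10, adjusted p = 1.45e-06). In H-1299 it was at 74.3, 71.5 and 69.7 CPM and then 46.6, 47.5 and 47.7 CPM (log2 fold change -0.60 ± 0.05, adjusted p = 3.15e-07). In H-23 it was at 52.7, 50.2 and 53.7 CPM and then 35.6, 34.3 and 34.3 CPM (log2 fold change -0.59 ± 0.05, adjusted p = 4.92e-07). In these lines every carfilzomib library was below every DMSO library. In CAPAN-2 it was at 169, 154 and 185 CPM and then 119, 113 and 109 CPM (log2 fold change -0.57 ± 0.07, adjusted p = 5.15e-06). In PANC-1 it was at 88.8, 83.1 and 85.002 CPM and then 61.99, 60.6 and 57.2 CPM (log2 fold change -0.51 ± 0.04, adjusted p = 1.27e-06). The pancreatic lines separated in the same direction. The falls were small in DLD-1, from 46.6, 43.3 and 46.4 CPM to 38.4, 41.6 and 37.2 CPM (log2 fold change -0.22 ± 0.06, adjusted p = 0.0231), and in RPMI, from 90.1, 84.2 and 85.6 CPM to 76.6, 74.97 and 82.02 CPM (log2 fold change -0.15 ± 0.06, adjusted p = 0.0291).

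Both small ERAP1 calls were lost in 3 of the 6 fits that left out a library, with adjusted p up to 0.0940 in DLD-1 (without DMSO replicate 1, carfilzomib replicate 1 or carfilzomib replicate 3) and 0.0973 in RPMI (without DMSO replicate 1, carfilzomib replicate 1 or carfilzomib replicate 2). The ERAP1 call in DLD-1 was also lost with library totals (adjusted p = 0.0544). ERAP1 was not called in RKO (0.07 ± 0.08). Its locus at chr5:96760810-96808100 overlaps CAST on the other strand. The neighbouring ERAP2 at chr5:96875939-96919716 overlaps no coding gene and rose in 4 lines. It was at 40.2, 46.8 and 42.3 CPM with DMSO and 48.7, 53.4 and 53.7 CPM with carfilzomib in RKO (log2 fold change 0.27 ± 0.07, adjusted p = 0.0417), where the groups did not overlap but the call was lost without DMSO replicate 1 or 3 or carfilzomib replicate 2 or 3 (adjusted p up to 0.168). ERAP2 also rose in CAPAN-2 (0.67 ± 0.06), DLD-1 (0.46 ± 0.04) and PANC-1 (0.27 ± 0.05). It fell in H-929 (-0.26 ± 0.10), a call lost without DMSO replicate 1 or 2 or carfilzomib replicate 3 (adjusted p up to 0.173). That call was also lost with library totals (adjusted p = 0.0505). ERAP2 was not called in RPMI (-0.02 ± 0.05), H-1299 (0.22 ± 0.11) or H-23 (0.07 ± 0.17). In CAPAN-2, DLD-1 and PANC-1, then, ERAP1 fell and ERAP2 rose.

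PSMB10, a catalytic subunit of the immunoproteasome whose locus overlaps the coding gene AC040162.1 on the same strand, rose in no line. In H-1299 it was at 16.5, 18.3 and 16.3 CPM with DMSO and 8.36, 9.02 and 9.83 CPM with carfilzomib (log2 fold change -0.91 ± 0.10, adjusted p = 3.53e-06). In CAPAN-2 it was at 67.4, 64.6 and 68.4 CPM and then 46.7, 46.02 and 44.9 CPM (log2 fold change -0.54 ± 0.06, adjusted p = 1.50e-06). In RPMI it was at 97.8, 102 and 95.7 CPM and then 76.8, 79.003 and 76.9 CPM (log2 fold change -0.35 ± 0.05, adjusted p = 5.02e-05). The carfilzomib libraries were below the DMSO libraries in these lines. It also fell in H-23 (-0.40 ± 0.09) and was not called in RKO (-0.14), DLD-1 (0.13), PANC-1 (0.05) or H-929 (0.12). NLRC5, the transactivator of class I genes, was at 3.14, 2.34 and 2.55 CPM and then 1.13, 0.732 and 1.57 CPM in H-1299 (log2 fold change -1.26 ± 0.27, adjusted p = 0.00145), without overlap. It rose in DLD-1 (0.48 ± 0.10). NLRC5 was not called in RKO (0.13), H-23 (-0.41), PANC-1 (-0.02), CAPAN-2 (-0.06), H-929 (-0.42) or RPMI (-0.16).

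B2M, the light chain of class I molecules, is uncertain as a single row. Its sum is uncertain too, since its identifier is not in the GENCODE 29 primary assembly. In RKO and H-1299 the listed B2M row held at most 1.60% of the summed counts of its rows. Its log2 fold change in the listed row was -0.96 ± 0.07 in RPMI, where the row was at 311, 289.7 and 271 CPM with DMSO and 156, 156 and 134 CPM with carfilzomib (adjusted p = 4.83e-08). With both rows summed, RPMI had 315, 293 and 274 CPM and then 158, 158 and 136 CPM (log2 fold change -0.96 ± 0.07, adjusted p = 2.94e-08). On either count the carfilzomib libraries of RPMI were below all DMSO libraries. The summed B2M rows also fell in H-929 (log2 fold change -0.39 ± 0.15, adjusted p = 0.0379), H-1299 (log2 fold change -0.29 ± 0.05, adjusted p = 4.18e-04) and DLD-1 (log2 fold change -0.29 ± 0.09, adjusted p = 0.0491). They rose in PANC-1 (log2 fold change 0.28 ± 0.03, adjusted p = 2.13e-05). They were not called in RKO (-0.48), H-23 (0.01) or CAPAN-2 (0.05). In RPMI 3 of 5 antigen presentation genes, the listed B2M row among them, were lower (32.2% of all genes). The median log2 fold change over the 5 was -0.16.

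**Figure D5:**
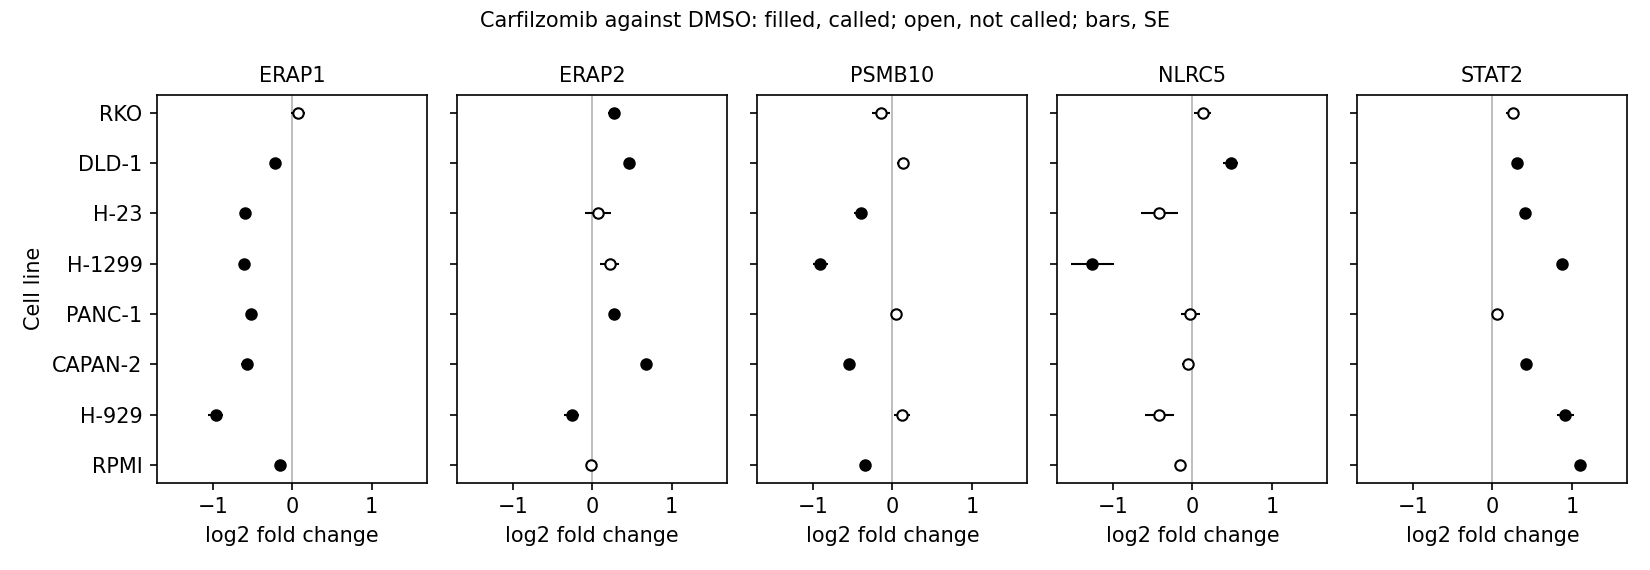
Log2 fold change of carfilzomib against DMSO (horizontal axis, bars show the standard error, filled points are called) for ERAP1, ERAP2, PSMB10, NLRC5 and, for contrast, STAT2 in each of the 8 cell lines (vertical axis). ERAP1 lies below 0 in 7 lines, and ERAP2 lies above 0 in 6, of which RKO, DLD-1, PANC-1 and CAPAN-2 are called.

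Whether the lines differed in their response was tested in a fit of all 48 libraries. The response differed between the 8 lines for 41 of 43 genes, IRF7 and IRF9 being the exceptions, beside 67.7% of all genes. The myeloma lines differed from each other for 38 genes (40.5% of all genes), PANC-1 from CAPAN-2 for 20 (24.9%), H-23 from H-1299 for 13 (30.8%) and RKO from DLD-1 for 2 (4.04%). In colon the genes were ISG20 (DLD-1 minus RKO 0.71 ± 0.16, adjusted p = 0.00480) and IFI27, which is uncertain. In myeloma the difference RPMI minus H-929 was 7.54 ± 1.04, adjusted p = 1.50e-07 for IFI44L, 4.96 ± 0.26, adjusted p = 7.89e-20 for MX1 and 3.81 ± 0.22, adjusted p = 8.11e-19 for IFIT2, which rose in both. The difference for STAT2 missed the threshold (0.27 ± 0.12, adjusted p = 0.0563). Of the 38 genes tested in both myeloma lines, 11 were lower in H-929 and higher in RPMI, 5 higher in both, 1 (ERAP1) lower in both, and 15 higher in RPMI and not called in H-929. How many of all genes share each of these patterns was not counted. Of all genes, 26.4% were higher and 26.2% lower in H-929, and 31.3% and 32.2% in RPMI.

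With the 8 lines as the units, so that the error is the spread between lines, limma called none of the 43 genes, with 8 higher and 2 lower at an unadjusted p under 0.05, beside 7.59% and 8.84% of all genes at that threshold. Of all genes, 0.0179% passed as higher and 0.0269% as lower after adjustment. STAT2 had a mean log2 fold change of 0.50 ± 0.11 (SE, adjusted p = 0.104) and ERAP1 of -0.48 ± 0.12 (adjusted p = 0.135). With fold changes from the fits per line in place of the joint fit, STAT2 was called (mean 0.55, adjusted p = 0.0406).

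Of 96 other genes of the pathway listed for this description, 93 had a row. Their calls were 30 higher and 21 lower of 77 tested in RPMI, 14 and 29 of 75 in H-929, 31 and 17 of 78 in CAPAN-2, and 19 and 29 of 68 in H-1299. They were 17 and 21 of 75 in PANC-1, 11 and 13 of 69 in H-23, 11 and 9 of 75 in DLD-1 and 5 and 0 of 67 in RKO. The shares of all genes, given above for each line, are near several of these counts, as for the genes higher in H-1299 (29.8% of all genes) and H-929 (26.4%) and lower in RPMI (32.2%). The median log2 fold change of this list was 0.04 in RPMI, 0.08 in CAPAN-2 and -0.29 in H-929. For the genes described above it was 1.77, 0.59 and -0.30. The 33 further interferon-stimulated genes of this list tested in RPMI had a median of 0.23. The feedback inhibitor SOCS1, which blocks the receptor kinases, gave the largest rise in H-929, from 2.17, 3.15 and 3.47 CPM with DMSO to 70.9, 75.02 and 74.96 CPM with carfilzomib (log2 fold change 4.66 ± 0.16, adjusted p = 3.49e-11). It also rose in RPMI (3.94 ± 0.15) and fell in H-1299 (-1.63 ± 0.51). In RPMI the largest rise was DDX60L (4.32 ± 0.57), a helicase-like relative of DDX60 (3.86 ± 0.31), and the largest fall was the chemokine CXCL10 (-2.33 ± 0.41). The receptor chain IFNAR2 fell in RPMI (-1.16 ± 0.09), H-929 (-0.86 ± 0.11), H-1299 (-0.57 ± 0.09) and CAPAN-2 (-0.47 ± 0.07). The membrane antiviral protein IFITM1 gave the largest fall in H-1299 (-2.82 ± 0.48), CAPAN-2 (-1.64 ± 0.08) and H-929 (-1.74 ± 0.25), and fell in RPMI too (-1.81 ± 0.41).

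In the remaining lines the largest rise and fall of this list were smaller. CAPAN-2 had the apolipoprotein L gene APOL2 (1.74 ± 0.06), and H-1299 the T cell checkpoint ligand CD274 (1.19 ± 0.23). PANC-1 had the guanylate-binding protein GBP2 (1.26 ± 0.28) as its largest rise and EPSTI1 (-1.42 ± 0.34) as its largest fall. H-23 had UBE2L6, the ISG15-conjugating enzyme (0.45 ± 0.09), and UBA7, the ISG15-activating enzyme (-1.13 ± 0.25). RKO had the lysosomal thiol reductase IFI30 (0.56 ± 0.12). DLD-1 had APOL6 as its largest fall (-0.63 ± 0.06), and its largest rise, PSME1 (3.58 ± 1.16), is uncertain, since its identifier has more than 1 row and only carfilzomib replicate 2 was high.

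Of the 7 interferon genes listed, 4 were tested in PANC-1, 2 in DLD-1, none in H-929 and 1 in each other line, and none was called higher. IFNE was at 8.44, 6.26 and 8.21 CPM with DMSO in CAPAN-2 and was not called there (-0.28 ± 0.14), and was lower in H-1299, from 60, 27 and 31 counts to 13, 7 and 2 counts (log2 fold change -1.504 ± 0.48, adjusted p = 0.0164). IFNG was lower in RPMI, from 3.02, 2.90 and 2.63 CPM to 1.71, 1.69 and 2.27 CPM (log2 fold change -0.58 ± 0.23, adjusted p = 0.0426). IFNL1 was lower in PANC-1, from 39, 22 and 24 counts to 15, 15 and 16 counts (log2 fold change -0.997 ± 0.33, adjusted p = 0.0277). In these lines the groups did not overlap in CPM. IFNB1, a type I interferon, had 0, 0 and 1 counts with DMSO and 36, 5 and 11 counts with carfilzomib in RPMI, and at most 5 counts in any library of the other lines. It did not pass the filter on low counts. Without that filter the RPMI difference was called (adjusted p = 6.67e-09), and no fold is given because the DMSO libraries held 1 count in all. Carfilzomib replicate 1 of RPMI had the highest count.

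The promoter core was set beside the response as a description. In RPMI, genes with the core in a window had 17 higher and 4 lower of 22 tested with a median log2 fold change of 1.63. Genes with a window and no core had 8 higher and 0 lower of 9 with a median of 1.11, and genes without a window had 7 higher of 8 with a median of 2.28. In H-929 the medians of these classes were -0.30, -0.33 and -0.30. The tested genes with the core that did not rise in RPMI were BST2, PSMB10, ERAP1 and B2M, all called lower, and ERAP2, which was not called. ERAP1 and ERAP2 also have a window without the core, and the rows of B2M are uncertain. STAT2, which lacks the core in its window, rose. Whether the core goes with the response was not tested.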

How the data were processed

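RNA libraries were prepared from 48 cultures by a stranded total RNA protocol after Qiazol extraction, per the labels' protocols, whereas mRNA sequencing is named in the design text. The authors deposited raw read counts per gene for every library in 1 matrix, with a symbol and an Ensembl identifier per row. The submitters' processing notes name bcl2fastq 2.19, FastQC, Trimmomatic, HISAT2, DESeq2 and the build hg38, without roles. The counting program, the annotation and the use of strand are not given in the sources used here. Overlapping genes, on opposite strands or on the same strand, are therefore uncertain. The drug concentrations were not used here.

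No 2 libraries of a group agreed within counting noise, so none was taken as a copy of another. Totals per library ran from 9.12 to 64.4 M counts and limit counting error only, since molecular identifiers are not known for these reads. The 6 libraries of a line were fitted together in edgeR 4.0.16 (R 4.3.3) and tested by quasi-likelihood, after filterByExpr and TMM scaling. Benjamini-Hochberg adjustment ran over all genes tested, with calls at an adjusted p under 0.05. A joint fit of the 16 groups tested whether the response differed between lines, with a contrast of 7 degrees of freedom and with 1 contrast per tumour type. The average over lines used limma 3.58.1 on the 8 fold changes of a gene. Baseline levels were compared by an F test over the 24 DMSO libraries. The fits were tested on simulated data. Gene positions and exon lengths came from GENCODE 29 by identifier, which matched 39 of the 43 genes, and promoter windows came from RefSeq.

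The members and the gene lists were chosen with earlier results of these data known, so patterns already seen in these data are not independent support. Per-library values were given for the genes called in the most lines in 1 direction and, in each line, for up to 4 called genes per direction with the largest fold change, if the group with more counts averaged 10 or more. Of the pathway list, the largest rise and fall per line were named by the same count minimum. A further set of 11 genes was described in every line whatever the values. SOCS1 in RPMI and H-1299, DDX60, IFNAR2, IFITM1 in RPMI and the interferon genes, and the genes given by fold change alone, were picked after their values were seen. Alternatives were DESeq2's size factors, library totals, no count filter, the Wald test of DESeq2 1.42.0, a fit of all 48 libraries, the replicate number as a block, and leaving out libraries, replicate numbers and lines in turn. Summing the rows that share an identifier was added after the data were seen.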

Additional observations from a re-analysis of the deposited data

Results flagged for a closer look

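The rule for a single library far from its group needs at least 4 libraries and was not applied to these groups of 3. The genes below were called in opposite directions in 2 lines of a tumour type, and the difference between their log2 responses was tested in the joint fit of all 48 libraries (edgeR, adjusted over all genes).
In lung, for H-1299 minus H-23, the difference was -0.73 for TRIM25 (adjusted p = 4.05e-09) and -1.01 for IFI35 (adjusted p = 2.55e-08). In pancreas, for CAPAN-2 minus PANC-1, the difference was 0.70 for IFIT3 (adjusted p = 6.49e-04), 1.88 for OASL (adjusted p = 1.91e-07) and 1.00 for DHX58 (adjusted p = 0.00296). For the same pair it was 2.00 for BST2 (adjusted p = 2.71e-15) and 1.17 for HERC6 (adjusted p = 2.35e-04). In myeloma, for RPMI minus H-929, the difference was 4.96 for MX1 (adjusted p = 7.89e-20), 4.20 for MX2 (adjusted p = 2.48e-16) and 1.25 for OAS1 (adjusted p = 2.56e-06). For the same pair it was 3.796 for OAS2 (adjusted p = 2.22e-15), 0.73 for SAMD9 (adjusted p = 7.44e-07) and 2.50 for HERC5 (adjusted p = 6.90e-18). For the same pair it was 0.66 for TRIM25 (adjusted p = 2.78e-08), 2.22 for DTX3L (adjusted p = 2.70e-13) and 2.09 for IFI35 (adjusted p = 2.82e-18). For the same pair it was 7.54 for IFI44L (adjusted p = 1.50e-07) and 4.70 for XAF1 (adjusted p = 2.48e-10).
The calls of TRIM25, IFI35, IFI44L, XAF1 and SAMD9 in H-929, IFI35 in H-1299, and DHX58 and HERC6 in PANC-1 were each lost in at least 1 fit without a library.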

How the results depend on the processing

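Of 162 calls over the 8 lines, 122 were kept in every alternative run, 30 were lost in some fit without 1 library and 28 in some other alternative. No called fold change changed sign. Counts that moved by more than 1.5 times were these. With library totals in place of TMM, RKO had 5 genes higher (3 with TMM) and DLD-1 had 0 lower (2 with TMM), and calls over all genes that were higher went from 40.6 to 60.9% in RKO and from 47.5 to 60.3% in DLD-1. In a fit of all 48 libraries, PANC-1 had 9 higher (16 in its own fit), DLD-1 had 1 lower and RKO had 1 lower (0 in its own fit), and without the count filter RKO also had 1 lower. That fit also moved the median of all genes in H-929 by -0.16, where 21 genes were lower and 39.4% of all calls were higher (50.2% in its own fit), and library totals moved it by -0.11 in H-1299, where 7 genes were higher and 14 lower. Without 1 library, genes higher in RKO numbered 1 to 4 and lower 0 to 1, lower in DLD-1 0 to 3, and lower in RPMI 2 to 4. Without 1 replicate number, RKO and DLD-1 differed for 0 to 3 genes and H-23 and H-1299 for 8 to 11. The average over lines called 1 gene higher with fold changes from the fits per line. The cause of these shifts was not tested. Same-numbered replicates did not deviate together (correlations from -0.0953 to 0.0601), so the numbers were not taken as pairs. With the replicate block DLD-1 had 1 gene lower and RKO differed from DLD-1 for 1 gene, and other counts of calls stayed within 1.5 times. With the core shortened by its last base, 24 genes and 8.107% of all windows matched, and with upstream bases alone 21 genes and 3.021%. Depth limits genes under the filter, which are not shown to be absent.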

Other observations

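APOL2, an apolipoprotein L gene, was higher with carfilzomib in 7 of 8 lines, from 0.41 ± 0.07 in H-23 to 1.74 ± 0.06 in CAPAN-2, and was not called in RKO (0.33 ± 0.16). In RPMI it went from 47.7, 51.9 and 52.7 CPM with DMSO to 172, 166 and 161 CPM with carfilzomib. APOL6 was lower in 6 lines, with -0.82 ± 0.12 in H-929, and higher in RPMI (0.70 ± 0.06). TBK1, the kinase that activates IRF3, was higher in both lung lines (H-23 0.41 ± 0.05, H-1299 0.76 ± 0.05), both myeloma lines (RPMI 0.94 ± 0.05, H-929 0.66 ± 0.11) and CAPAN-2 (0.82 ± 0.06). IFI30 was lower in RPMI, from 280.1, 303 and 295 CPM to 58.8, 56.8 and 60.04 CPM (log2 fold change -2.32 ± 0.06, adjusted p = 3.49e-12), with no overlap between the groups. These genes were picked after their values were seen.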
